A study of Rattus norvegicus with 9 samples.

Results

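The genes described here are 7 metabotropic glutamate receptor genes of the rat, Grm2, Grm3, Grm4, Grm5, Grm6, Grm7 and Grm8, out of 32623 gene rows in the deposited tables. They were chosen by symbol from a named list of the family, with the row of most total reads where a symbol has several rows, and each symbol had 1 row. Their identifiers are ENSRNOG00000013171 (Grm2), ENSRNOG00000005519 (Grm3), ENSRNOG00000000487 (Grm4), ENSRNOG00000016429 (Grm5), ENSRNOG00000000233 (Grm6), ENSRNOG00000005662 (Grm7) and ENSRNOG00000021468 (Grm8). All 7 passed the filter on low reads, which left 15321 genes for testing. The family was picked with dose results of these libraries known, so its dose differences are a description of these libraries and not an independent test.

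Metabotropic glutamate receptors are G protein-coupled receptors that sense glutamate outside the cell and signal more slowly than the glutamate-gated ion channels. Group I, to which Grm5 belongs, couples to Gq, phospholipase C and release of calcium from internal stores. Group II (Grm2 and Grm3) and group III (Grm4, Grm6, Grm7 and Grm8) couple to Gi/o and lower cyclic AMP, and several of them act at presynaptic terminals. Oligodendrocyte precursor cells (OPCs), the dividing cells that become myelinating oligodendrocytes, are known to carry metabotropic receptors besides their glutamate-gated channels.

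RNA was measured by mRNA sequencing in 9 libraries of wild-type primary rat brain OPCs kept for 5 days in differentiation medium (DMEM-F12 with B27, N1, biotin and laminin). The 3 basal libraries had no drug, 3 had 1 µM bavisant and 3 had 10 µM bavisant, a histamine H3 receptor antagonist. The protocol text writes the lower dose in mM, and the value used here, 1 µM, is that of the series' design. Each group holds 1 library titled P11, 1 titled P13 and 1 titled P14. What the P number marks is not stated, nor whether libraries came from separate animals or cultures, so p-values measure the spread between these libraries, which may be technical.

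Libraries held 23919373 to 43059921 reads assigned to genes. The P11 libraries stood apart: in a fit of dose and P number, 50.6% of tested genes differed between P11 and the mean of P13 and P14, and 12.3% differed between P13 and P14. All 9 OPC markers in the table and all 10 oligodendrocyte markers had reads in every library, and so did 10 of 10 astrocyte, 10 of 10 microglia and 11 of 12 neuron markers, so markers of other cell types were not absent. In such bulk RNA, fewer cells of a type and less RNA per cell cannot be told apart.

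Grm5 had the highest level of the 7 genes, at 16.8 ± 5.84 TPM (mean ± SD over 9 libraries). TPM is a level per transcript length with the same sum in every library. Grm4 followed with 6.82 ± 5.01 TPM and Grm7 with 6.47 ± 1.59 TPM. The place of Grm4 is uncertain, since its reads per unit of TPM differed between doses in P13 and P14, as described below. Grm8 had 2.47 ± 0.729 TPM, Grm2 1.36 ± 0.966 TPM and Grm3 1.23 ± 0.338 TPM. Grm6, best known from the retina's ON bipolar cells, was last at 0.213 ± 0.0768 TPM and rested on 12 to 22 reads in each library. Of 6 retinal bipolar markers, Cabp5 had 0 reads in all libraries, and 3 had reads in every library.

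In that order only Grm7 and Grm8, and Grm3 and Grm6, had ranges that did not overlap between neighbours over the 9 libraries. Grm5 lay above Grm4 in 9 of 9 libraries, while Grm4 lay above Grm7 in 4 of 9. Without the P11 libraries the order was the same, with Grm5 at 19.4 and Grm4 at 9.76 TPM. In the P11 libraries alone Grm5 led with 11.5 TPM, Grm7 had 6.61 TPM, Grm4 was the fifth with 0.937 TPM and Grm2 the last with 0.123 TPM. Against all tested genes, the mean TPM of Grm5 was above 47.8% of them and that of Grm6 above 1.5%.

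**Figure D1:**
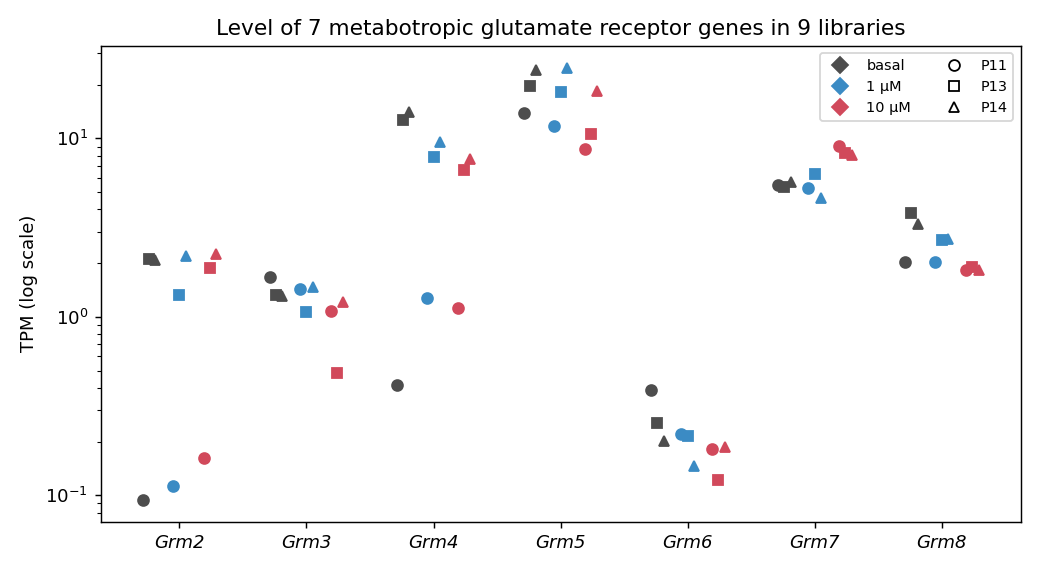
TPM (log axis) of each receptor gene in each of the 9 libraries, with colour for the dose and symbol for the P number. Grm5 is the highest gene on average, Grm6 lies between 0.121 and 0.388 TPM, and the 3 P11 circles of Grm2 and Grm4 lie below all their P13 and P14 points.

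The summed TPM of the 7 genes was 22.1 to 51.0 per library, and this sum and its shares include the uncertain Grm4 values. Grm5 made up 58.1% of that sum in the basal P11 library and 39.4% in the 10 µM P11 library, where Grm7 made up 40.9%. In the P13 and P14 libraries the Grm5 share was 35.4% to 54.7% over all doses. Grm2 made up 0.392% to 0.731% of the sum in P11 libraries, against 3.51% to 6.29% in the others.

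Grm5, the group I gene, was lower at 10 µM bavisant than in basal cultures within each P number. Its CPM values, the gene's share of the library's reads scaled for library composition, were 24.3 in P11, 33.0 in P13 and 40.2 in P14 of the basal group. At 1 µM they were 20.6, 30.6 and 41.2, and at 10 µM 15.7, 19.4 and 31.9 in the same order of P numbers. P14 was high and P11 low in all 3 groups, and the ranges of the groups overlapped. The log2 fold change at 10 µM against basal was -0.54 ± 0.33 (SE) in edgeR's quasi-likelihood test over all 9 libraries (adjusted p = 1.00). With the P number as a block, it was -0.57 ± 0.09, or 0.674 times the basal level, with a Benjamini-Hochberg adjusted p of 0.0198.

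Grm7, a group III gene whose receptor has low affinity for glutamate and sits in presynaptic active zones, was higher at 10 µM. Its basal CPM values were 8.30 in P11, 7.82 in P13 and 8.19 in P14. At 1 µM they were 8.08, 9.23 and 6.45, and at 10 µM 14.1, 13.01 and 11.8. All 3 libraries at 10 µM lay above all 6 others, while the 1 µM and basal groups overlapped. At 10 µM against basal the log2 fold change was 0.68 ± 0.15 without the block (edgeR adjusted p = 0.733; DESeq2 adjusted p = 0.0172). With the block it was 0.67 ± 0.12, or 1.59 times the basal level, at an edgeR adjusted p of 0.0250.

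Against 1 µM rather than basal, the 10 µM libraries gave similar values with the block. Grm7 was 0.72 ± 0.11 higher on the log2 scale (edgeR adjusted p = 0.0218, and 0.867 without the block). Grm5 was lower, at -0.47 ± 0.09 (edgeR adjusted p = 0.0295, and 1.00 without the block). This comparison and the one against basal share the 10 µM libraries, so the 2 comparisons are not independent.

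**Figure D2:**
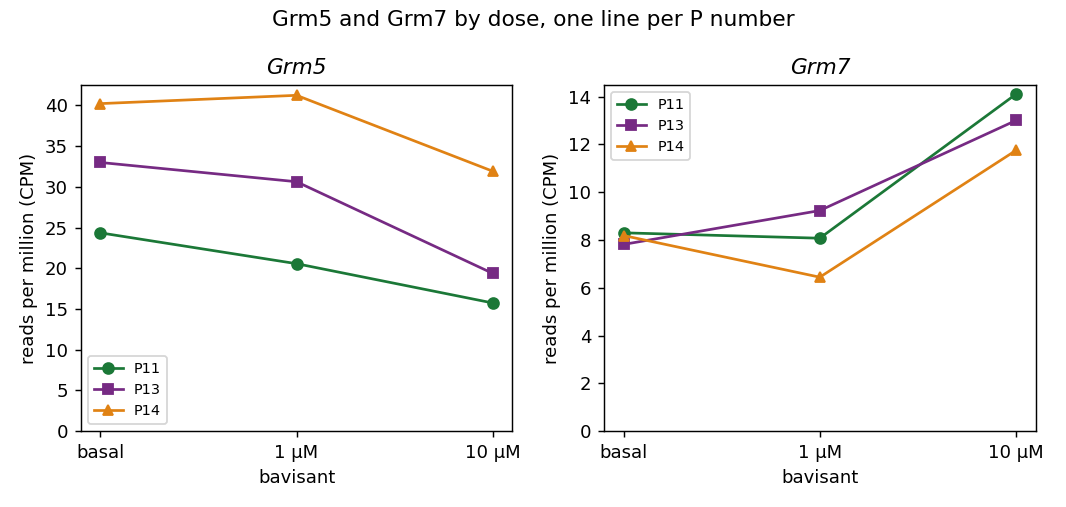
CPM of Grm5 (left) and Grm7 (right) at each bavisant dose, 1 point per library and 1 line per P number, with axes from 0. Each Grm5 line ends lower at 10 µM than at basal, and each Grm7 line ends higher, at 11.8 to 14.1 against 7.82 to 8.30 CPM.

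Across all genes, edgeR without the block called 0 at 10 µM against basal (0% of 15321; 808 had an unadjusted p under 0.05 and DESeq2 called 64). With the block it called 607 (3.96%), of which 1.32% of tested genes were higher and 2.64% lower. The receptor genes called with the block were 1 higher and 1 lower of 7. Against 1 µM, the call was 0 genes (0%) without the block, with 717 at an unadjusted p under 0.05 and 66 called by DESeq2. With the block 659 genes (4.3%) were called there, 1.31% higher and 3% lower, again with Grm7 higher and Grm5 lower among the receptors.

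These blocked calls depended on single libraries, as did the number of calls over all genes (0 to 581 at 10 µM against basal). In the same fits the log2 fold change ran from 0.58 to 0.79 for Grm7 and from -0.67 to -0.47 for Grm5. The Grm7 call at 10 µM against basal held in 3 of 9 fits that each left out 1 library, those without a 1 µM library. Its adjusted p was between 0.0525, without the 10 µM P11 library, and 0.129, without basal P13, when a basal or 10 µM library was left out. The Grm5 call held in 7 of 9 such fits, and ended without basal P11 (edgeR adjusted p = 0.0836) or basal P13 (0.106). Against 1 µM, Grm7 kept its call in 6 of 9 fits and lost it without the 1 µM P11 (0.0822), 1 µM P14 (0.0903) or 10 µM P14 library (0.0862). Grm5 kept it in 4 of 9, losing it without any 1 µM library (0.0710 to 0.119), without 10 µM P13 (0.0741) or without 10 µM P14 (0.0756). Without all P11 libraries, a fit chosen after seeing the data, neither passed at 10 µM against basal (Grm7 0.64, edgeR adjusted p = 0.117, and Grm5 -0.53, adjusted p = 0.0787), and 10 genes in all did.

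The other 5 receptor genes did not pass at 10 µM against basal in either fit. The group II genes gave, with the block, -0.66 ± 0.23 for Grm3 (edgeR adjusted p = 0.143) and 0.15 ± 0.20 for Grm2 (0.680). Grm3, a receptor also abundant in astrocytes, had 2.47 to 3.30 CPM in basal and 0.975 to 2.36 CPM in 10 µM libraries, which did not overlap. Astrocyte markers summed to 2985 to 3633 CPM in basal and 2276 to 3246 in 10 µM libraries. With the block 2 of 10 were called lower (Slc1a2 and Slc1a3), beside 2.64% of all tested genes called lower. The part of astrocytes in the Grm3 values was not tested.

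Of the group III genes, Grm8 gave -0.43 ± 0.16 (edgeR adjusted p = 0.165 with the block). Its CPM was 4.02 in P11, 7.07 in P13 and 6.27 in P14 of the basal group, and 4.11 to 4.31 at 10 µM, so it was lower in P13 and P14 and not in P11. Grm6 gave -0.67 ± 0.31 (adjusted p = 0.242) at the depth of 12 to 22 reads. Grm4 gave -0.05 ± 0.17 with the block (adjusted p = 0.936) and 0.01 ± 1.08 without it.

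Groups did not overlap in CPM for 3 of the 7 genes at 10 µM against basal (Grm3, Grm6 and Grm7), where 9.33% of all tested genes did not. For Grm6 the nearest values were 0.471 CPM (16 reads) in basal P14 and 0.456 CPM (17 reads) in 10 µM P14. Grm3 had 2.47 CPM (84 reads) and 2.36 CPM (88 reads) in the same libraries. Both genes had more reads in the 10 µM library, so these gaps rest on the scaling. Grm7 was further apart, with at least 11.8 CPM at 10 µM and at most 8.30 CPM in basal. Against 1 µM only Grm7 did not overlap, and 8.5% of all genes did not. The sign was the same in all 3 P numbers for Grm3, Grm5, Grm6 and Grm7 at 10 µM against basal, which is 4 of 7 beside 44.8% of all tested genes. In P14 the log2 difference was near 0 for Grm3 (-0.066) and Grm6 (-0.042), so their sign there is uncertain.

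At 1 µM against basal no receptor gene passed the test. Their blocked log2 fold changes ran from -0.50 ± 0.30 for Grm6 to -0.05 ± 0.12 for Grm7, all 7 with an edgeR adjusted p of 1.00. Over all genes, 0 (0%) were called at 1 µM without the block and 0 (0%) with it, while 81 and 582 had an unadjusted p under 0.05 and DESeq2 called 5 and 8. No receptor gene had groups that did not overlap there, against 2.91% of all tested genes.

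**Figure D3:**
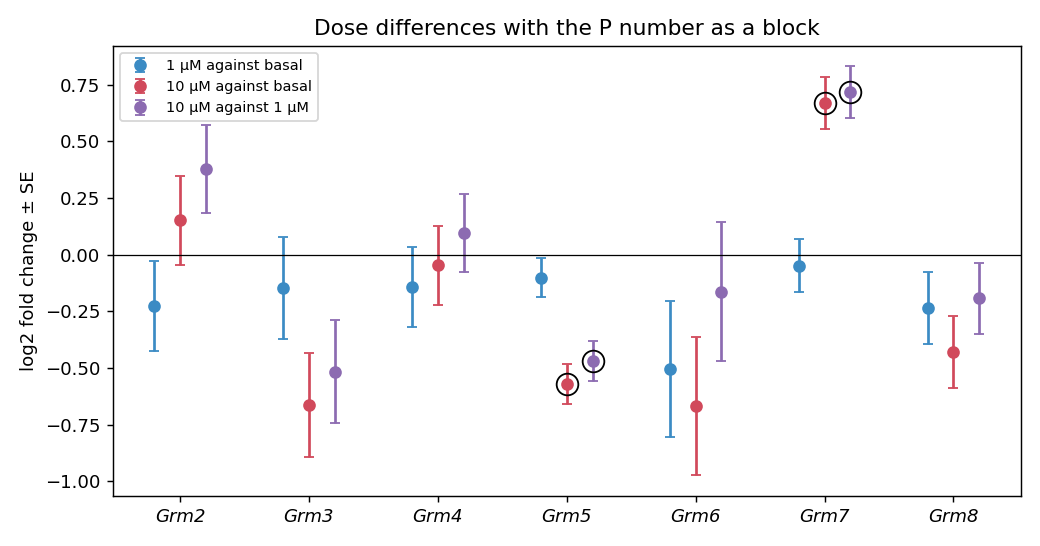
Log2 fold change of each receptor gene in the 3 dose comparisons, from the edgeR fit with the P number as a block, with bars of ± 1 SE. Circled points have an adjusted p under 0.05: Grm5 (-0.57 and -0.47) and Grm7 (0.67 and 0.72) at 10 µM against basal and against 1 µM.

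The ratio of Grm5 to Grm7, both in TPM, puts their levels on a scale per transcript length. It was 2.55 in P11, 3.70 in P13 and 4.23 in P14 of the basal group, and 2.22, 2.88 and 5.42 at 1 µM. At 10 µM it was 0.963, 1.28 and 2.30, so in the P11 library the Grm7 level was as high as that of Grm5. Each 10 µM ratio was under the basal ratio of its P number, and all 3 were under the lowest basal value. The 10 µM and 1 µM ratios overlapped, since P14 at 10 µM (2.30) lay above P11 at 1 µM (2.22). Grm5 was lower and Grm7 higher at 10 µM in every P number, and both were picked for those calls. The lower ratio therefore restates their differences and is not a further result.

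Some OPC, oligodendrocyte, neuron and microglia markers were also called at 10 µM with the block, beside 1.32% of all tested genes called higher and 2.64% lower. Oligodendrocyte markers summed to 44600 to 54500 CPM in basal and 62600 to 71210 in 10 µM libraries, with 6 of 10 called higher with the block. Neuron markers summed to 1012 to 1237 CPM in basal and 917.5 to 995.1 at 10 µM, with 4 of 10 tested called lower. Microglia markers summed to 497.8 to 686.5 CPM in basal and 503.3 to 580.9 at 10 µM, which lies inside the basal range, with 2 of 10 called lower. OPC markers summed to 5476 to 5822 and 5892 to 6197 CPM, with 2 of 9 called higher. Their part in the Grm5 and Grm7 differences was not tested.

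The windows around the annotated starts of Grm5 and Grm7 are shown because these were the 2 receptor genes called at 10 µM. Each runs from 250 bases before the start to 50 after, 5′ to 3′, from RefSeq's GRCr8, which is not the rn6 build of the files. RefSeq's table held 4 of the 7 genes (Grm5, Grm6, Grm7 and Grm8). Capitals mark matches, on either strand, to GGGCGG (a GC box) or CAGCTG (1 form of the E-box). These are 2 of 4 motifs searched, which were chosen after the sequences had been seen. The Grm5 window is chr1:150733503-150733802 and the Grm7 window chr4:145286476-145286775, both on the plus strand.
Grm5: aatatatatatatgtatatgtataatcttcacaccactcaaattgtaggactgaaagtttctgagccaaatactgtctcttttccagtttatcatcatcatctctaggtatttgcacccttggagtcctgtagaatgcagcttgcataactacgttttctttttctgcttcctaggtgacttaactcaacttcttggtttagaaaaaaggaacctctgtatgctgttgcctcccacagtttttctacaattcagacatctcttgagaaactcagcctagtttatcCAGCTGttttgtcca
Grm7: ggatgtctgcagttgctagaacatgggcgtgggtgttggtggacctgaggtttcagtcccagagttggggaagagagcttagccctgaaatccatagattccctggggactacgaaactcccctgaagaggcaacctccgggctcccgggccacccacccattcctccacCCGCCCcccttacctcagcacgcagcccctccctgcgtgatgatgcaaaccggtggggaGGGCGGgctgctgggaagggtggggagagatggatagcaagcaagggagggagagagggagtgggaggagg
The Grm5 window had 37.3% G and C and 1 CG pair, where all 33469 windows of the table had a median of 51.7% and 7 pairs. It held 1 match to CAGCTG, present in 15.1% of all windows, and other forms of the E-box were not searched in either window. The Grm7 window had 62% G and C and 9 CG pairs and held 2 GC boxes, as 33.1% of windows held at least 1. Neither window held the core of a cyclic AMP response element, searched as TGACG and present in 21.2% of windows. A search for the letters TATAAA, present in 14.2% of windows, found none in either. These letters are a description of the windows and carry no information on factors bound there.

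Grm2 and Grm4 differed far more between P numbers than between doses. Grm2, a group II autoreceptor gene, had 0.257, 0.308 and 0.455 CPM in the basal, 1 µM and 10 µM libraries of P11. In P13 it had 5.42, 3.42 and 5.31 CPM and in P14 5.36, 5.65 and 6.04 CPM in the same order. The 3 P11 libraries held 6 to 17 Grm2 reads, the 6 others 123 to 248, and the ranges were far apart at every dose.

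Grm4, a group III gene, had 0.642, 0.718 and 0.455 CPM in P11, 5.97, 4.70 and 5.85 in P13 and 6.04, 5.63 and 6.47 in P14. In the additive edgeR fit, Grm2 was 14.7-fold lower in P11 than in the mean of P13 and P14 (log2 -3.88 ± 0.22, adjusted p = 4.35e-06). Grm4 was 9.45-fold lower (log2 -3.24 ± 0.18, adjusted p = 4.55e-06). Of 15321 tested genes, 12 had a lower log2 value than Grm2 in this comparison and 19 a lower one than Grm4. Both calls held in 9 of 9 fits that left out 1 library. The comparison sets a single P number, P11, against P13 and P14, and each of those fits kept P11 libraries. Its p-values, and those of P13 against P14, measure the spread left within P numbers and not the spread between P numbers.

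**Figure D4:**
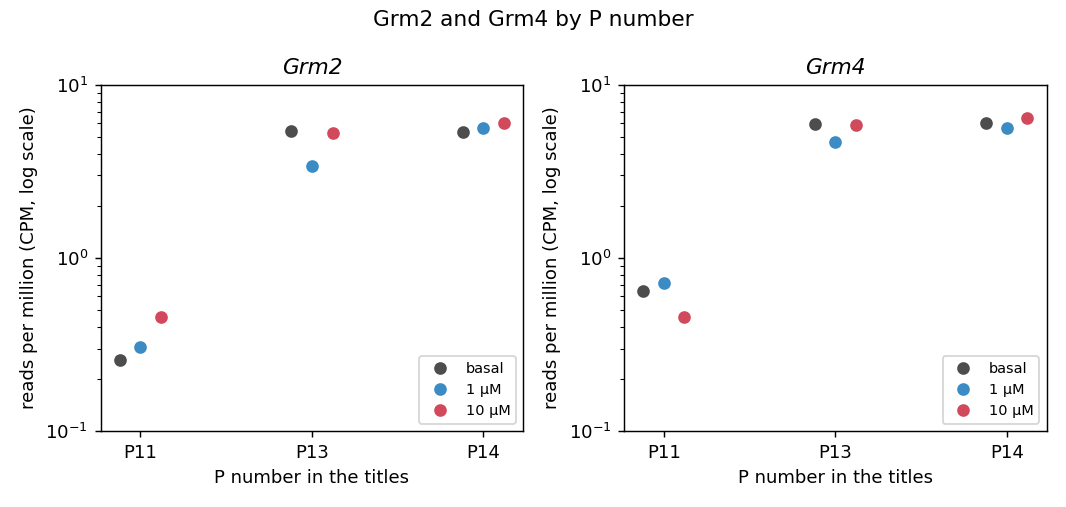
CPM (log axis) of Grm2 (left) and Grm4 (right) by P number, with colour for the dose, 1 point per library. The P11 points lie at 0.257 to 0.718 CPM and all P13 and P14 points at 3.42 to 6.47 CPM, at every dose.

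Grm5 was also lower in P11, by a smaller amount (log2 -0.68 ± 0.08, edgeR adjusted p = 1.91e-04), and lower in P13 than in P14 (-0.48 ± 0.09, adjusted p = 0.0114). The second of these calls ended without the 1 µM P14 (0.0659) or 10 µM P14 library (0.0676). So 3 of the 7 genes were called lower in P11, where 25.4% of all tested genes were, and 1 was lower in P13 than P14, where 4.88% were. Grm3, Grm6, Grm7 and Grm8 did not pass either comparison, with values of 0.34 ± 0.19 for Grm3, 0.49 ± 0.26 for Grm6, 0.10 ± 0.10 for Grm7 and -0.34 ± 0.14 for Grm8 in P11. Grm8 passed in P11 when the 10 µM P11 library was left out (-0.53, edgeR adjusted p = 0.0143) or library totals were used (-0.39, 0.0484). Of 10 tested neuron markers, 6 were lower and 2 higher in P11, and they summed to 901.2 to 1012 CPM there, 927.6 to 1237 in P13 and 995.1 to 1146 in P14. Of 10 microglia markers, 7 were lower in P11 (497.8 to 573.7 CPM, against 503.4 to 709.8 in the others). Astrocyte markers summed to 2276 to 2985 CPM in P11, 2907 to 3399 in P13 and 3246 to 3907 in P14, with 4 of 10 lower and 2 higher in P11. Of 10 oligodendrocyte markers 8 were higher and 1 lower in P11, and of 9 OPC markers 4 were higher and 3 lower. Over all tested genes 50.6% differed in this comparison. The part of any of these cell types in the low Grm2 and Grm4 was not tested.

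Grm4 read differently in the deposited table of reads and in that of TPM. In P13 and P14 its CPM was 5.97 and 6.04 in basal, 4.70 and 5.63 at 1 µM and 5.85 and 6.47 at 10 µM. Its TPM was 12.7 and 14.1 in basal, 7.85 and 9.56 at 1 µM and 6.68 and 7.66 at 10 µM. The reads behind 1 unit of TPM, relative to the basal mean and scaled between libraries, were 1.33 and 1.31 at 1 µM and 1.79 and 1.82 at 10 µM. In TPM, reads are divided by a transcript length, and the lengths behind the deposited values were not analysed here.

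Among 14348 genes with at least 10 reads in all 6 P13 and P14 libraries, 10 (0.0697%) had such a ratio past 1.5-fold at 10 µM and 4 (0.0279%) at 1 µM. At 10 µM, 2 other genes moved as far as Grm4. The 6 other receptor genes had ratios of 0.985 to 1.13, with Grm8 the highest. Grm8 had 1.11 in P13 and 1.16 in P14 at 10 µM, and 76 other genes of the 14348 moved as far. Its TPM at 10 µM is thus also somewhat low for its reads. The comparison was made after the values had been seen and leaves out P11, whose libraries held 15 to 28 Grm4 reads. In P11 the Grm4 TPM went the other way, from 0.417 in basal to 1.28 at 1 µM and 1.11 at 10 µM. No direction over dose is therefore given for Grm4.

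**Figure D5:**
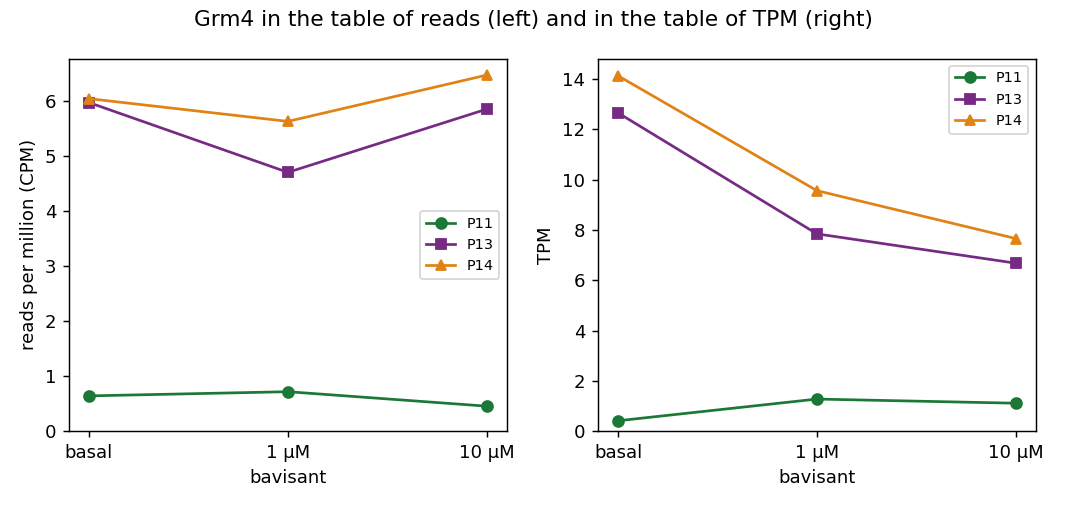
Grm4 by dose in CPM from the table of reads (left) and in TPM as deposited (right), 1 line per P number, with axes from 0. In P13 and P14 the TPM goes from 12.7 and 14.1 in basal to 6.68 and 7.66 at 10 µM while the CPM stays between 4.70 and 6.47.

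Over the 9 libraries, log2 CPM of Grm2 and Grm4 had a Pearson r of 0.981, and of -0.111 after the mean of each P number was taken out, so their likeness lay in the P11 libraries. Grm5 and Grm7 had an r of -0.69, and of -0.894 after that step. Grm3 and Grm5 had 0.39 and 0.943. These are descriptions over 9 libraries that share doses and P numbers.

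By the same measure over all 9 libraries, the genes most like Grm7 were Nsdhl (r = 0.977), Msmo1 (0.968), Fdft1 (0.955), Aacs (0.951) and Sh3tc2 (0.943). Among those most like Grm5 were Vcam1 (0.979), Ptprs (0.977) and Cdc42ep3 (0.975). Grm2 was most like Cpne6 (0.998), Mgat5b, Zfp68, Ap3b2 and Gdap1l1 (0.995), and Grm4 most like Plekho1 (0.998), Psd, Ccsap, Lypd1 and Actl6b (0.996). Grm3 was closest to Clstn2 (0.98) and Grm8 to Mfsd11 (0.977). After the P means were taken out, the closest were Prpf38a for Grm7 (0.994), Dchs1 for Grm5 (0.998), Zkscan7 for Grm2 (0.986), Slc38a3 for Grm4 (0.96), Tnrc18 for Grm3 (0.994) and Slc4a2 for Grm8 (0.984), and Mfsd11 was the only gene among the first 5 of both measures.

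Downstream of group I receptors, 4 of 19 genes of the Gq pathway were lower and 0 higher at 10 µM against basal with the block, where 2.64% of all tested genes were lower and 1.32% higher. They were Plcb2 (-0.73 ± 0.14), Plcb1 (-0.47 ± 0.10) and Plcb4 (-0.32 ± 0.06), which encode phospholipase C beta enzymes, and Dgkb (-0.50 ± 0.10), a diacylglycerol kinase. The list's median log2 fold change was -0.21, beside -0.01 over all tested genes. Rgs4, a GTPase activator for Gq and Gi/o, passed against 1 µM only (-0.81 ± 0.16, edgeR adjusted p = 0.0363), and Plcb4 passed there as well as against basal (-0.29 ± 0.06). The 3 most abundant members, Dgkz, Itpr2 and Dgka, did not pass, with 0.01, -0.16 and 0.15 against basal.

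Of 20 tested genes of the Gi/o pathway that serves groups II and III, 1 was lower at 10 µM, Adcy7, an adenylyl cyclase (-0.53 ± 0.12, edgeR adjusted p = 0.0455 with the block), which is near the 2.64% of all tested genes. The list's median was -0.07, beside -0.01 over all tested genes. The G protein subunits Gnai2, Gnai3 and Gnao1, at means of 575, 187 and 164 CPM, gave -0.03, -0.02 and -0.07. Of 26 tested scaffolds and partners, 2 were lower, again beside 2.64% of all tested genes: Shank2 (-0.46 ± 0.07), a postsynaptic scaffold, and Grip1 (-0.33 ± 0.07), a PDZ-domain protein, with a list median of -0.06. Ppp1cc and Ppp1ca, which encode catalytic subunits of a protein phosphatase, did not pass, with 0.06 and 0.16.

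Among 21 tested genes of glutamate transport and metabolism, 5 were lower and 0 higher at 10 µM against basal with the block, beside 2.64% and 1.32% of all tested genes. The list's median log2 fold change was -0.08, beside -0.01 over all. Slc7a11, the cystine and glutamate exchanger, had -0.91 ± 0.14, and the glial glutamate transporters Slc1a2 and Slc1a3 had -0.65 ± 0.14 and -0.40 ± 0.09. Gad1 (-0.60 ± 0.05) and Gad2 (-0.72 ± 0.12) turn glutamate into GABA. The glutamate transporter gene Slc1a1 passed against 1 µM only (0.21 ± 0.05), while Glul and Glud1 did not pass (-0.04 and -0.09 against basal). These 5 genes were known from earlier results of these libraries, and Gad1, Gad2, Slc1a2 and Slc1a3 are also among the neuron and astrocyte markers above.

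N-acetylaspartylglutamate (NAAG) is a peptide agonist of the receptor that Grm3 encodes. Of 6 tested genes of its synthesis and cleavage, Aspa alone was called, higher by 0.38 ± 0.05 at 10 µM (edgeR adjusted p = 0.0164 with the block), beside 1.32% of all tested genes called higher. Aspa encodes the oligodendrocyte enzyme that splits N-acetylaspartate. Nat8l and Rimklb, which make N-acetylaspartate and NAAG, had -0.12 ± 0.06 and -0.13 ± 0.06 and did not pass. Without the block 0 genes of any of these lists were called, and at 1 µM 0 were called in either fit.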

How the data were processed

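Per the submitters' processing notes, reads were handled with FastQC, Trimmomatic, DRAGEN and Picard on rat build rn6. The labels name a stranded mRNA kit. How reads were aligned, counted by strand and assigned to genes is not given in the sources used here. As deposited, the reads are the authors' estimated counts per gene (92.7% of them whole numbers), which were rounded before fitting. The deposited TPM values, the authors' second table, were used for levels between genes.

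Genes were filtered with edgeR's filterByExpr (count minimum 10, total minimum 15) and scaled with TMM. The main test was edgeR 4.0.16's quasi-likelihood F test over all 9 libraries (R 4.3.3), with Benjamini-Hochberg adjustment over 15321 genes and a threshold of 0.05. SE is the log2 fold change divided by the square root of F. CPM uses TMM, and log2 CPM for correlations a prior count of 2. Alternatives were DESeq2 1.42.0, limma 3.58.1 on log2(TPM + a pseudocount of 1 or 0.1), other scaling and filters, and leaving out each library. The code was tested on simulated data. Depth of 23919373 to 43059921 reads allows, from 3 reads, 0.0697 to 0.125 CPM where none is seen, counting error only.

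Group titles share P numbers. Deviations from group means of the 9 pairs of libraries with the same P number correlated at 0.319 to 0.772 across genes. In the 18 pairs that differed in both group and P number the range was -0.708 to 0.193. Deviations cancel within each group, so positive values in the former pairs force negative ones among the latter, which add no separate support. From the same-number pairs, the P number was taken to pair libraries, and blocked values are given beside the main ones. Replicate libraries differed by more than counting noise in every group (chi-square statistic over its degrees of freedom 23.8 to 117).

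The members, gene lists and tests were chosen with earlier results of these data known. Named are all 7 receptors and, from each other list, up to 6 members called in a dose comparison and the 3 with the highest mean CPM. For pattern likeness, the 5 genes with the highest r and at least 2 CPM were taken for receptors with at least 1 CPM. Some genes that these rules name are not reported here. Marker lists only describe the cultures. Figures were drawn with matplotlib 3.10.9.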

Additional observations from a re-analysis of the deposited data

How the results depend on the processing

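Using the P number as a replicate block moved the counts most. Without the block, edgeR called 0 receptor genes and 0 genes in all in each dose comparison. DESeq2 without it called 1 receptor gene (Grm7) and 64 genes at 10 µM against basal, 1 (Grm7) and 66 against 1 µM, and 5 genes at 1 µM. With the replicate block, edgeR called 2 receptor genes and 607 genes at 10 µM against basal, and 2 and 659 against 1 µM. The block with DESeq2's size factors gave 2 and 609, and 2 and 656. The block with library totals gave 2 and 834, and 2 and 926, and without the count filter 2 and 715, and 2 and 760. The block in DESeq2 gave 2 and 964, 2 and 987, and 8 genes at 1 µM. The block in limma on log2(TPM + 0.1) gave 1 (Grm5) and 353 at 10 µM against basal, and 0 and 321 against 1 µM. With the P11 libraries left out, chosen after seeing the data, the block gave 0 receptor genes in both and 10 and 110 genes. The cause of these differences was not tested. Leaving out 1 library at a time without the block gave 0 genes in each of the 9 fits of every dose comparison. With the block it gave 0 to 581 genes at 10 µM against basal, with 0 without basal P11, 1 without basal P13 and 57 without basal P14. Against 1 µM the blocked fits gave 0 to 651 genes, with 0 without 1 µM P11, 1 µM P14 or 10 µM P14, and at 1 µM 0 to 2. They called 0 to 2 receptor genes at 10 µM and 0 at 1 µM. Leaving out 1 library gave 555 to 2019 genes for P13 against P14.

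Log2 fold changes near 0 changed sign. At 10 µM against basal, Grm4 (0.01 in edgeR without the block) was -0.047 with library totals, -0.35 in limma on log2(TPM + 1) and -0.19 on log2(TPM + 0.1), with or without the filter or the block. With the block it was -0.047 in edgeR, -0.046 with DESeq2's size factors, -0.10 with library totals, -0.053 in DESeq2 and -0.043 without the count filter. Against 1 µM, Grm4 was -0.20 on log2(TPM + 1) and -0.24 on log2(TPM + 0.1), and at 1 µM against basal 0.058 on log2(TPM + 0.1), in each of those limma fits. With 1 library left out at 10 µM against basal, Grm2 ran from -0.45 to 0.61 and Grm4 from -0.49 to 0.54. At 1 µM against basal, Grm2 ran from -0.99 to 0.30, Grm3 from -0.37 to 0.054, Grm4 from -0.70 to 0.29, Grm5 from -0.35 to 0.15 and Grm7 from -0.18 to 0.095. At 10 µM against 1 µM, Grm2 ran from -0.20 to 1.08, Grm4 from -0.27 to 0.74 and Grm6 from -0.47 to 0.024. For P13 against P14, Grm6 ran from -0.092 to 0.40 and Grm8 from -0.030 to 0.19. Grm5 and Grm7 kept their direction in every fit at 10 µM, against basal and against 1 µM.

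The planned levels in CPM in place of TPM have no separate comparison, since CPM is not per length. The filter at a mean of 50 reads left out Grm6. Depth limits Grm6 in all libraries and Grm2 and Grm4 in P11, which rest on 6 to 28 reads there.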
